A study of Mus musculus with 12 samples.

Results

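The miR-183 cluster is a group of 3 neighbouring miRNA genes, Mir183, Mir96 and Mir182, and the 5 mature products followed here are mmu-miR-182-5p, mmu-miR-182-3p, mmu-miR-183-5p, mmu-miR-183-3p and mmu-miR-96-5p (written without the prefix from here on). They were picked by name as 5 of the 1966 mature miRNAs counted in the quadriceps, a thigh muscle, of wild-type C57BL/6J mice. Ages are named by the day after birth as P1, P5, P14 and P90, the last being adult, with 3 mice and 3 libraries per age, which gave 12 libraries. All animals shared the genotype, no treatment is named, and the tissue was whole muscle, so fewer cells of a type and less RNA per cell cannot be told apart. The study made the time course to learn which miRNAs altered by loss of the splicing factor MBNL1 take part in muscle development. Here it was used to follow the cluster through postnatal growth.

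The products of the cluster are best known from sensory organs. Hair cells of the inner ear, photoreceptors and sensory neurons use them in maturation, and changes in the seed of miR-96 cause hearing loss in mice and humans. In muscle, miR-182 has been described as a repressor of the transcription factor FoxO3, which drives genes of muscle wasting. A miRNA recognises its targets mainly through the seed, bases 2 to 8 from its 5′ end.

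The mature sequences were read from RefSeq (GRCm38.p6) and are shown because the members resemble each other in the bases that select targets. The seed is in capitals.
miR-182-5p: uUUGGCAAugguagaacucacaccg
miR-96-5p: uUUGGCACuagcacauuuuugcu
miR-183-5p: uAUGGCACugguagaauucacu
miR-182-3p: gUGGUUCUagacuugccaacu
miR-183-3p: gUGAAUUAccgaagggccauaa
The 5p arms held the motif UGGCA at bases 3 to 7, read on the miRNA strand only. The same letters stood at that position in 5 of 1675 mature sequences (0.299%), and only the 3 members among these passed the filter on low counts. The seeds of miR-182-5p and miR-96-5p were identical at 6 of 7 bases, those of miR-96-5p and miR-183-5p also at 6 of 7, and those of miR-182-5p and miR-183-5p at 5 of 7. Over all compared positions, with the seed included, the order differed. Here miR-182-5p and miR-183-5p were identical at 18 of 22 positions, and miR-182-5p and miR-96-5p at 12 of 23. The seed of miR-96-5p was also that of miR-1271-5p, which had a count of 0 in every library. No other miRNA with a sequence shared the whole mature sequence of a member.

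The 3 hairpins are given next with the 5p arm in capitals, since this arm supplied nearly all reads of the cluster.
Mir182: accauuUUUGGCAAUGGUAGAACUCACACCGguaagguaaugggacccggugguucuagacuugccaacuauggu
Mir96: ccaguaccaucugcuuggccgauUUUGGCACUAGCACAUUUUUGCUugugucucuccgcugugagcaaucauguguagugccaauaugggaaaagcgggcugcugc
Mir183: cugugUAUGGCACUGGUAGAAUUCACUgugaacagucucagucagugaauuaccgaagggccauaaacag
They lie on the minus strand of GRCm38.p6, with Mir182 at chr6:30165918-30165992, Mir96 at chr6:30169446-30169551 and Mir183 at chr6:30169668-30169737. Only 116 bases separate Mir96 from Mir183, and 3453 bases separate Mir182 from Mir96, so the cluster spans 3820 bases. All 3 fall within the annotated long noncoding RNA gene Mirc35hg (chr6:30158640-30174125), between the protein-coding genes Nrf1 and Ube2h.

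The members differed widely in abundance in this muscle. By mean count over the 12 libraries, miR-182-5p ranked 213th of the 1966 miRNAs and miR-183-5p 278th, whereas miR-96-5p ranked 499th, miR-183-3p 702nd and miR-182-3p 947th. The mean counts were 2872, 896, 55.6, 10.2 and 2.58, respectively. The library totals behind them ranged from 20363495 to 53126984 counts. Of the 5 products, 4 passed the filter on low counts and were tested among 809 miRNAs. The exception was miR-182-3p, with 13, 4 and 3 counts at P1, 5, 0 and 0 at P5, 1, 0 and 4 at P14, and 0, 1 and 0 at P90. Levels are in CPM, that is, counts per 1000000 counts of a library whose size was adjusted by its trimmed-mean (TMM) factor, and replicates are given in the order 1, 2, 3.

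In newborn muscle the levels of all 3 5p arms were close among replicates. By P14 the levels of miR-183-5p and miR-96-5p were lower in every library than in any P1 library, while miR-182-5p showed no such separation. The P1 and P14 libraries did not overlap, in either direction, in 59.2% of all 809 miRNAs. In adults, 1 of the 3 mice (P90 replicate 2) had far more of all 3 5p arms than the others.

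miR-182-5p had 91.6, 98.4 and 72.9 CPM at P1, 33.1, 58.3 and 109 CPM at P5, 64.7, 122 and 39.4 CPM at P14, and 12.7, 325 and 26.2 CPM at P90. Its libraries overlapped in all 5 comparisons of 2 ages. The age means were 87.7 ± 13.2 CPM for P1, 67.0 ± 38.9 for P5, 75.5 ± 42.6 for P14 and 121 ± 177 for the adult group (SD, n = 3 each). The order of these means puts P90 first and P5 last, but no neighbours in it differed by more than the SD of the more variable age.

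miR-183-5p had 33.4, 46.0 and 40.1 CPM at P1, 17.4, 24.8 and 16.09 CPM at P5, 19.2, 17.3 and 12.5 CPM at P14, and 5.65, 72.4 and 14.4 CPM at P90. Every P5 and P14 library was below every P1 library (the P1 and P5 libraries did not overlap in 32.5% of all miRNAs). P90 replicate 1 was below and P90 replicate 2 above all libraries of the other ages, and P90 replicate 3 lay within the P14 range. Its age means ran in the order P1 (39.8 ± 6.29 CPM), P90 (30.8 ± 36.3), P5 (19.4 ± 4.72) and P14 (16.3 ± 3.45; SD, n = 3 each), and P5 and P14 differed by less than 1 SD.

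miR-96-5p had 1.91, 2.03 and 2.38 CPM at P1, 1.56, 1.87 and 1.36 CPM at P5, 0.496, 0.271 and 1.08 CPM at P14, and 0.476, 6.95 and 0.750 CPM at P90. The P1, P5 and P14 libraries formed 3 separate ranges, in descending order of level with age (P5 and P14 did not overlap in 54.4% of all miRNAs). These values rest on few reads, such as 18, 11 and 31 counts at P14 and 8, 131 and 9 at P90. For 8 counts the exact 95% Poisson interval was 3.45 to 15.8 counts, and such intervals cover counting error only, since the counts carry no molecular identifiers. The age means were 2.72 ± 3.66 CPM at P90, 2.11 ± 0.246 at P1, 1.60 ± 0.259 at P5 and 0.617 ± 0.419 at P14 (SD, n = 3 each). In this order P90 and P1 differed by less than the P90 SD, whereas P1 and P5, and P5 and P14, differed by more than either SD of the pair.

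**Figure D1:**
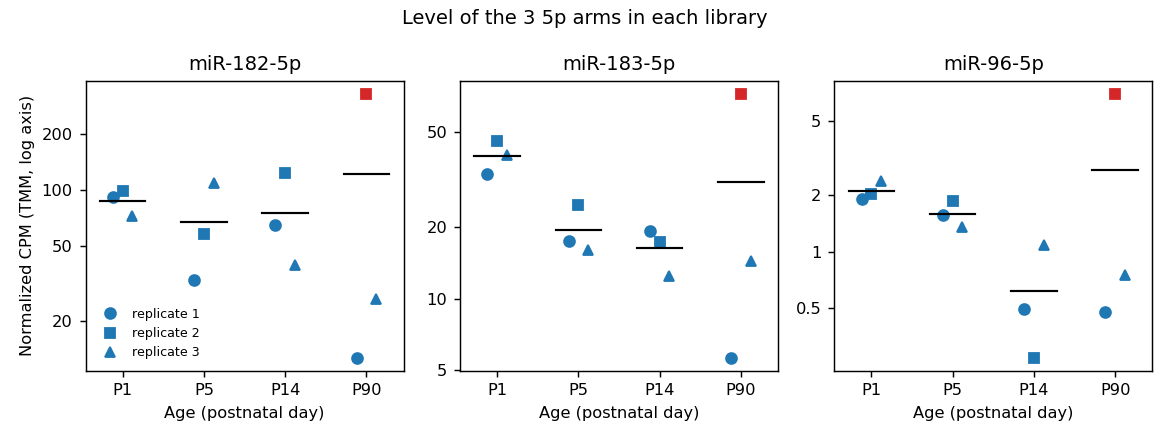
Level of miR-182-5p, miR-183-5p and miR-96-5p in each of the 12 libraries, with age on the x axis and normalized CPM on a logarithmic y axis, where symbols mark the replicate number (not linked between ages), black lines the mean of 3 libraries, and red P90 replicate 2. The red square is the highest point of each panel, at 325, 72.4 and 6.95 CPM, and the other P90 libraries lie far below it.

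The 3p arms were minor products. The 5p arm supplied 99.62% to 100% of the reads of the miR-182 hairpin in a library. For miR-183-3p the counts were 23, 34 and 0 at P1, 11, 10 and 22 at P5, 5, 4 and 1 at P14, and 1, 9 and 2 at P90. The count of 0 in P1 replicate 3 stood beside 1685 counts of miR-183-5p in the same library, and it allows up to 3 counts. For miR-96 only the 5p arm is a member, so no arm balance was computed.

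The first comparison asked whether the cluster changed from P1 to P5. With all 12 libraries in the edgeR quasi-likelihood fit, 0 of 4 tested members passed Padj < 0.05 (0 also at an unadjusted P under 0.05, and 0 with DESeq2, which gave no Padj for 2 of them), against 4.45% of all 809 miRNAs. The estimate for miR-183-5p was a log2FC of -1.04 (SE 0.58, Padj = 0.436 in edgeR), that for miR-182-5p was -0.39 (SE 0.81, Padj = 0.904) and that for miR-96-5p was -0.40 (SE 0.70, Padj = 0.872). When only the P1 and P5 libraries were fitted, miR-183-5p passed, with a log2FC of -1.06 and Padj = 0.0175 in edgeR. Of the 741 miRNAs tested in that fit, 11.7% passed and 6.48% were downregulated.

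The estimates stayed negative for 3 of 4 members from P5 to P14, with miR-182-5p as the exception, and 0 of 4 passed (0 at an unadjusted P under 0.05, 0 of the 3 with a Padj in DESeq2, which gave none for miR-96-5p in any comparison), against 44.4% of all miRNAs. The log2FC of miR-96-5p was -1.40 (SE 0.75, Padj = 0.152 in edgeR), and its libraries did not overlap. For miR-182-5p and miR-183-5p the log2FC values were 0.17 (SE 0.81) and -0.25 (SE 0.58).

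Over the whole span from P1 to P14, miR-183-5p had a log2FC of -1.29 (SE 0.59, Padj = 0.0825 in edgeR) and miR-96-5p one of -1.80 (SE 0.75, Padj = 0.0606). The number of members past the threshold was 0 of 4, against 49.1% of all miRNAs, although 2 of the 4 passed at an unadjusted P under 0.05 and 0 of the 3 with a Padj did in DESeq2. The estimate for the rare miR-183-3p was larger in size but had a wide error (log2FC -2.28, SE 1.14, Padj = 0.115). In this fit the spread of each miRNA is estimated over all ages, and it therefore takes in the P90 libraries. In the fit of P1 and P14 alone, miR-183-5p was downregulated (log2FC -1.20, Padj = 0.000364 in edgeR) and so was miR-96-5p (log2FC -1.71, Padj = 0.0165), beside 30.2% of the 735 miRNAs tested there. For miR-182-5p the log2FC over all libraries was -0.21 (SE 0.81, Padj = 0.858).

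With all libraries the cluster's 1 call was for miR-96-5p from P14 to P90, with a log2FC of 2.20 (SE 0.77, Padj = 0.0222 in edgeR). It was the 1 member of 4 past the threshold (1 at an unadjusted P under 0.05, 0 with DESeq2, which gave miR-96-5p no Padj), against 59.1% of all miRNAs, and 22.4% that were upregulated. Under TMM scaling this call rested on P90 replicate 2. Without that library the log2FC was 0.01 (Padj = 0.999), as the other P90 levels of 0.476 and 0.750 CPM fall within the P14 range. It was also lost without P14 replicate 1 (log2FC 2.11, Padj = 0.0624) and without P14 replicate 2 (log2FC 1.87, Padj = 0.0824). With all libraries it was lost under library totals (log2FC 0.07, Padj = 0.938 in edgeR), with a GC trend removed (1.34, Padj = 0.139) and with a replicate block (1.80, Padj = 0.0804). Under upper-quartile factors it was made with P90 replicate 2 (3.83, Padj = 0.000470) and without it (1.45, Padj = 0.0377).

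From P1 to P90, which spans newborn to adult muscle, 0 of 4 members passed with all libraries (0 at an unadjusted P under 0.05, 0 of 3 with DESeq2), against 66.4% of all miRNAs. The 95% intervals of the log2FC were wide, from -1.27 to 2.21 for miR-182-5p, from -1.60 to 0.87 for miR-183-5p and from -1.12 to 1.91 for miR-96-5p. Across the 4 ages 0 of 4 members passed as well (0 at an unadjusted P under 0.05, 0 of 3 with DESeq2), against 72.4% of all miRNAs, and the edgeR Padj was 0.759 for miR-182-5p, 0.173 for miR-183-5p, 0.0920 for miR-96-5p and 0.325 for miR-183-3p.

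P90 replicate 2 stood apart from the other adults in these miRNAs more than in any others. Its CPM exceeded the higher of the other P90 libraries 12.4-fold for miR-182-5p, 9.27-fold for miR-96-5p and 5.03-fold for miR-183-5p. It exceeded the highest of the other 11 libraries of any age 2.65-fold, 2.92-fold and 1.58-fold, respectively. In raw counts, the cluster gave 317 and 499 counts in P90 replicates 1 and 3 and 7637 counts in P90 replicate 2. These values describe libraries and were not tested, because 1 library has no replicate.

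Ranked by the gap on log2(CPM + 0.5) between P90 replicate 2 and the nearest other P90 library, miR-182-5p came 1st of 809 miRNAs (3.61 log2 units), miR-96-5p 2nd (2.58) and miR-183-5p 3rd (2.29). With library totals in place of TMM scaling, the same 3 led in the order miR-182-5p, miR-183-5p and miR-96-5p. The next were miR-203-3p and miR-203b-5p at 1.496 log2 units, whose counts in the P90 libraries were identical and cannot be told apart, and miR-708-5p at 1.38. On this scale 15 miRNAs of P90 replicate 2 were over 2-fold above the nearest library, and the 3 over 4-fold were all members of the cluster. The 15 include pairs with identical values, such as miR-203-5p and miR-203b-3p (1.303 log2 units each), so they hold fewer separate signals. In the other 11 libraries, between 2 and 14 miRNAs were over 2-fold above the nearest library of their age and 0 to 3 over 4-fold. The minor product miR-183-3p ranked 37th, at 9 counts in P90 replicate 2 against 1 and 2. The added 0.5 CPM shrinks the gap of rare miRNAs. In plain CPM ratio miR-204-3p, with 0.0595, 0.848 and 0.0833 CPM from 1, 16 and 1 counts, stood above miR-96-5p and miR-183-5p. For miR-6951-5p, with 0, 12 and 0 counts, the plain ratio has no finite value.

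**Figure D2:**
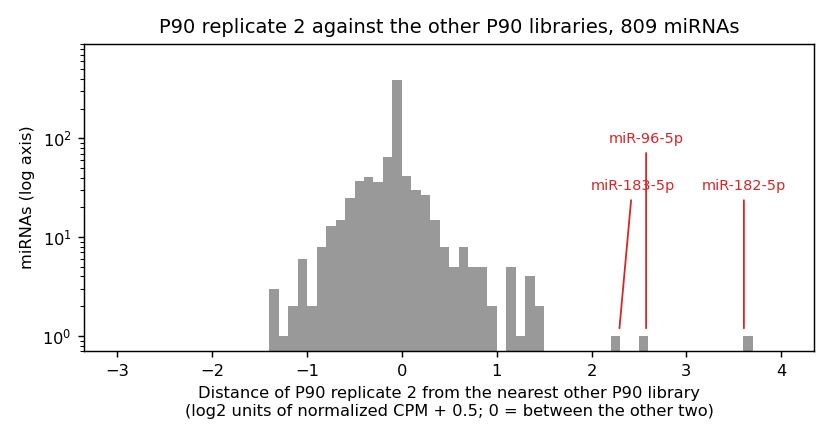
Histogram of 809 tested miRNAs by how far P90 replicate 2 lay above (positive) or below (negative) the nearest of the other P90 libraries, in log2 units of CPM + 0.5 on the x axis, with the number of miRNAs on a logarithmic y axis and 0 for values between the other libraries. The 5p arms of the cluster stand alone on the right, at 2.29, 2.58 and 3.61.

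The spread at P90 was accordingly the widest of all tested miRNAs, with an SD of log2(CPM + 0.5) of 2.43 for miR-182-5p, 1.81 for miR-183-5p and 1.60 for miR-96-5p against a median of 0.275 over all. At P1 the same SD was 0.225, 0.228 and 0.134, near the median of 0.181. At P5 and P14, miR-182-5p was again among the most variable miRNAs (0.855 and 0.814, ranked 13th and 17th of 809), and miR-183-5p was not (0.326 and 0.313).

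Each comparison was therefore also made without P90 replicate 2, a choice made after its values were seen, with 862 miRNAs tested. From P1 to P14, miR-183-5p (log2FC -1.34, SE 0.28, Padj = 0.00122 in edgeR) and miR-96-5p (log2FC -1.84, SE 0.46, Padj = 0.00418) were downregulated, 2 of 4 members against 28.8% of all miRNAs, and miR-182-5p was not called (log2FC -0.26, Padj = 0.646). The fall of miR-183-5p was already called from P1 to P5 (log2FC -1.05, SE 0.28, Padj = 0.0446), where 2.32% of all miRNAs were downregulated, but not under RLE factors (Padj = 0.0758) or upper-quartile factors (Padj = 0.0588). That of miR-96-5p was called from P5 to P14 (log2FC -1.42, SE 0.46, Padj = 0.0209), where 26.8% were. Whether the timing differed between the pair was not tested in this fit, and their count ratio within each library is given with the other ratios.

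In the same fit, without P90 replicate 2, the 3 5p arms were downregulated between P1 and P90. The log2FC was -2.22 for miR-182-5p (SE 0.52, Padj = 0.00198 in edgeR), -2.05 for miR-183-5p (SE 0.34, Padj = 0.000118) and -1.83 for miR-96-5p (SE 0.57, Padj = 0.0125). These were 3 of 4 members against 37.4% of all miRNAs, whose median log2FC was -0.75. From P14 to P90, miR-182-5p was the 1 member called (log2FC -1.95, SE 0.52, Padj = 0.00565), against 32.7% of all miRNAs downregulated, and it was lost under upper-quartile factors (log2FC -0.61, Padj = 0.300). Across the ages 3 of 4 members passed, against 67.2% of all.

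**Figure D3:**
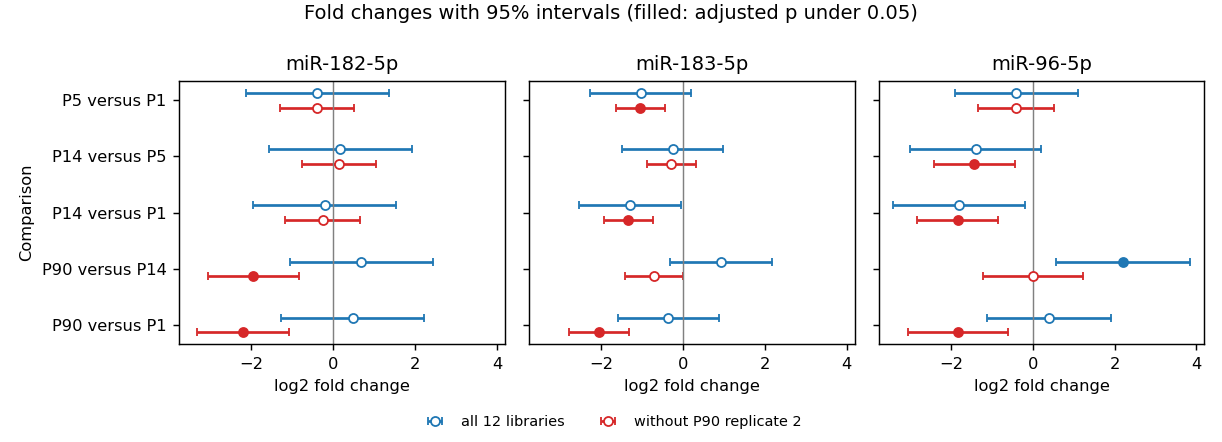
Log2FC with 95% intervals for the 3 5p arms in 5 comparisons of 2 ages, from the fit of all 12 libraries (blue) and the fit without P90 replicate 2 (red), where filled circles mark Padj under 0.05. Intervals are narrower in red throughout, and for miR-182-5p the P90 versus P1 estimate moves from 0.47 to -2.22.

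The direction at P90 also moved with the scaling. The TMM factors were 0.247 to 0.384 at P90 and 1.235 to 1.725 at the other ages. The median log2FC of all tested miRNAs for P90 versus P1 went from -0.72 to -0.37 with RLE factors, to -2.97 with library totals and to 1.177 with upper-quartile factors. Without P90 replicate 2, miR-182-5p had a log2FC of -1.86, -4.61 and -0.39 under these scalings, and the last did not pass (Padj = 0.496 in edgeR). For miR-183-5p the values were -1.68, -4.46 and -0.21 (Padj = 0.575 for the last), and for miR-96-5p they were -1.48, -4.15 and 0.01 (Padj = 0.986 for the last). From P1 to P14 the scaling mattered less. Without P90 replicate 2, miR-183-5p and miR-96-5p passed under all 3 of these scalings and in DESeq2, with the smallest changes under upper-quartile factors (log2FC -0.88 and -1.44, Padj = 0.0157 and 0.0142 in edgeR).

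Base composition moved with age as well. Over 309 miRNAs with a known sequence and a mean of at least 10 CPM, the log2 level changed with GC content by 0.377 to 0.561 per 10 percentage points in the P14 libraries and by -0.38 to -0.591 in the P90 libraries, against -0.012 to 0.075 at P1 and P5. The GC content was 39.1% for miR-96-5p, 40.9% for miR-183-5p and 48% for miR-182-5p. P90 replicate 2, at -0.591, was close to P90 replicate 3, at -0.527. With this trend removed and P90 replicate 2 left out, the P14 versus P1 log2FC was -1.04 for miR-183-5p (Padj = 0.00513 in edgeR) and -1.50 for miR-96-5p (Padj = 0.0118), while miR-96-5p no longer passed from P5 to P14 (log2FC -1.07, Padj = 0.0647).

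Because the hairpins lie close together, the balance of their products within a library was examined next. Such a ratio does not depend on library scaling. The share of miR-182-5p in the summed counts of miR-182-5p and miR-183-5p was between 64.5% and 77.1% in 9 of 12 libraries. In P5 replicate 3 it was 87.2% (95% Wilson interval 86.3% to 88.0%), in P14 replicate 2 it was 87.6% (86.8% to 88.5%) and in P90 replicate 2 it was 81.8% (80.9% to 82.6%). The other P90 libraries had 69.2% (63.8% to 74.1%) and 64.6% (60.2% to 68.7%), so their intervals lay below that of P90 replicate 2. In the P5 and P14 libraries named, miR-182-5p was high (109 and 122 CPM) and miR-183-5p was not (16.09 and 17.3 CPM). In P90 replicate 2 both were high.

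**Figure D4:**
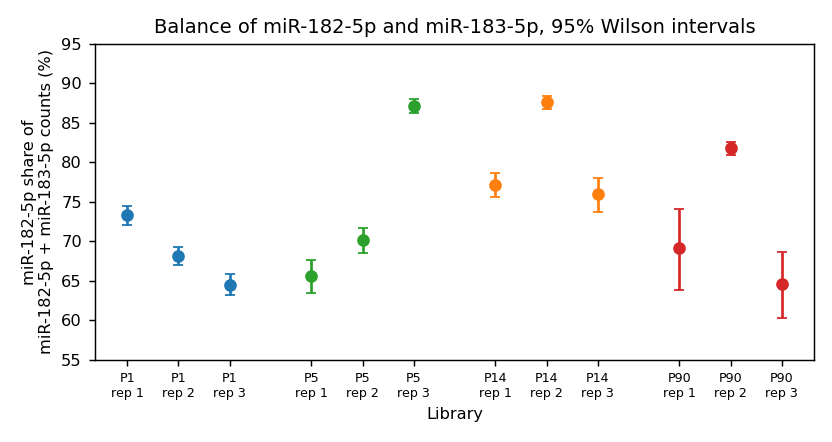
Share of miR-182-5p in the counts of miR-182-5p plus miR-183-5p (y axis, %) in each of the 12 libraries (x axis, coloured by age), with 95% Wilson intervals for counting error only. The 3 libraries over 80% come from 3 different ages: P5 replicate 3, P14 replicate 2 and P90 replicate 2.

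Between ages, none of the 5 count ratios examined passed an exact permutation test over the 15400 partitions of the libraries. For miR-182-5p to miR-183-5p the 2-sided exact P was 0.455 (adjusted 0.731 over the 5 ratios), for miR-182-5p to miR-96-5p it was 0.143 (adjusted 0.358) and for miR-183-5p to miR-96-5p it was 0.110 (adjusted 0.358). The ratios of miR-182-5p and miR-183-5p to their 3p arms gave exact P values of 0.731 and 0.656 (adjusted 0.731 for both). miR-183-5p had 17.5, 22.7 and 16.9 times the counts of miR-96-5p at P1, 11.2, 13.3 and 11.9 times at P5, 38.7, 63.7 and 11.5 times at P14, and 11.9, 10.4 and 19.2 times at P90. Without P14 replicate 3, the library in which miR-96-5p kept the most counts at that age, this ratio passed (exact permutation P = 0.00201, adjusted 0.0101). It was the only 1 of 12 omissions of a library to do so, and the adjusted exact permutation P reached 0.779 among the others. The ratio of miR-183-5p to miR-96-5p in P90 replicate 2, 10.4, was close to the 11.9 of P90 replicate 1.

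The miRNAs with the most similar pattern were then sought, as a description, by the root mean square difference of centred log2(CPM + 0.5) over the 12 libraries. For miR-182-5p they were miR-183-5p (0.663), miR-708-5p (0.815) and miR-204-3p (0.886), for miR-183-5p they were miR-96-5p (0.545), miR-182-5p (0.663) and miR-6951-5p (0.664), and for miR-96-5p they were miR-6951-5p (0.543), miR-183-5p (0.545) and miR-32-3p (0.589). The low counts of miR-183-3p placed it nearest to miR-3572-5p (0.282), miR-802-5p (0.316) and let-7j (0.321). Without P90 replicate 2 the members no longer led each other's lists. Over the 11 remaining libraries miR-183-5p ranked 29th for miR-182-5p and miR-96-5p ranked 46th for miR-183-5p. For these 3 arms the nearest were then miR-323-5p (0.497), miR-702-3p (0.344) and miR-452-5p (0.205).

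The nearest other miRNA genes on the chromosome were set beside the cluster without a test of the difference. Within 1 Mb lie Mir335, at 571562 bases, and Mir29a and Mir29b-1, at 892923 and 893286 bases. miR-29a-3p, which represses collagen genes, was upregulated from P1 to P90 (log2FC 5.70, Padj = 4.91e-12 in edgeR) and miR-335-5p was downregulated (log2FC -4.996, Padj = 3.81e-12). Of the 6 tested arms, 4 were upregulated and 2, both of miR-335, were downregulated. The summed level of the 6 tested arms in P90 replicate 2 was 1.002 times that of the higher other P90 library (9008 CPM against 6231 and 8988 CPM).

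Markers of other cells were compared over whole lists in the adult libraries, since a muscle sample can also hold nerve, blood, fat or skin. Epithelial miRNAs summed to 426 CPM in P90 replicate 2 against 172 and 160 CPM in replicates 1 and 3. In this list 4 of 10 members were higher than in both others, but only miR-203-3p, a miRNA of skin keratinocytes, was over 2-fold higher (138, 389 and 121 CPM). miR-205-5p, also of squamous epithelium, had 6.42, 3.02 and 3.92 CPM and miR-200b-3p had 6.84, 11.0 and 9.08 CPM. Erythroid miRNAs summed to 264, 508 and 320 CPM with 3 of 3 higher, among them miR-451a, the main miRNA of red blood cells, at 241, 451 and 277 CPM. Their part in the level of the cluster was not tested.

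The other lists were not raised in that library in sum. Neural and Schwann cell miRNAs gave 1562, 1390 and 1579 CPM, with 5 of 13 tested members higher in replicate 2 and none over 2-fold. Most of these sums came from miR-128-3p (1152, 900 and 1099 CPM). Next in abundance, miR-9-5p had 145.6, 161.4 and 171.6 CPM and miR-218-5p had 28.85, 48.2 and 37.15 CPM. Immune cell miRNAs gave 864, 591 and 647 CPM (1 of 7 higher) and brown fat miRNAs 516, 436 and 459 CPM (1 of 5). The 7 muscle miRNAs, led by miR-1a-3p, were present at 1455700, 1583600 and 2374600 CPM, values scaled up by the TMM factors under 1. At most 1 member of a cell type list was at 0 in any P90 library.

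From P1 to P90 the lists moved in different ways, beside 25.2% of all miRNAs upregulated, 41.2% downregulated and a median log2FC of -0.72. Of 10 epithelial miRNAs 0 were upregulated and 3 downregulated (median log2FC -0.70), and from P1 to P14 0 and 6 (median -1.37, against 20.3% upregulated, 28.8% downregulated and a median of -0.11 over all), the span in which miR-183-5p and miR-96-5p were lower in every library. Among these, miR-205-5p was downregulated by P90 (log2FC -2.71, Padj = 2.89e-05 in edgeR), as was miR-200b-3p (log2FC -1.32, Padj = 0.00674). The most abundant of the epithelial list, miR-203-3p, was not called from P1 to P90 (log2FC 0.405, Padj = 0.401 in edgeR). Of 13 neural miRNAs 2 were upregulated and 3 downregulated (median -0.28; 1 and 4 without P90 replicate 2), of 7 immune 3 and 3 (median -0.14; 3 and 2), of 3 erythroid 1 and 0 (median -0.57; 0 and 2 without P90 replicate 2, median -0.84), of 5 brown fat 3 and 2 (median 2.25) and of 7 muscle 3 and 3 (median 0.28; 4 and 3 without P90 replicate 2). What these lists contribute to the level of the cluster was not tested.

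Since miR-182 is known as a repressor of FoxO3, other miRNAs described as repressors of FoxO1 or FoxO3 were set beside it. Of 9 tested, 6 were upregulated from P1 to P90 and 1 was downregulated (median log2FC 1.19), and without P90 replicate 2 the numbers were 6 and 0. Over all miRNAs these shares were 25.2% and 41.2%, with a median of -0.72. They include miR-486b-5p and miR-486a-5p, muscle-enriched miRNAs whose near-identical copies make the split between them uncertain (log2FC 2.73, Padj = 1.89e-09 in edgeR, and 2.66, Padj = 3.48e-09), and miR-27a-3p (log2FC 1.25, Padj = 3.34e-06). The miR-486 copies both count among the 6 upregulated, which therefore hold fewer separate signals. None of the 9 was higher in P90 replicate 2 than in both other adult libraries, and their sums were 12186, 9928 and 10231 CPM.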

How the data were processed

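Small RNA was sequenced from quadriceps of 12 mice, and groups were taken from the sample titles. According to the study's methods, the authors selected reads of 10 to 35 nt with cutadapt 1.18, aligned them to GRCm38 with Bowtie2 2.4.1 and counted them per mature miRNA of miRBase 22 with featureCounts 2.0.1. Strand and overlap options of the counting are not given in the sources used here. The deposited values are raw read counts.

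The counts were filtered with filterByExpr (minimum count 10), scaled by TMM and fitted with edgeR 4.0.16 in R 4.3.3, as 1 quasi-likelihood model of 4 age means. F-tests were 2-sided, and P values were adjusted by Benjamini-Hochberg over all miRNAs tested. P values weigh the difference between ages against the spread among the 3 mice per age. In this model that spread was estimated over the 4 ages together, with information shared across miRNAs. The code was tested on simulated counts. Replicates were compared by chi-square per degree of freedom (155 to 1056), and none were duplicates. GC content was known for 85.04% of the tested miRNAs. Alternatives were other scalings, no filter, DESeq2 1.42.0, a replicate block, removal of a GC trend and leaving out libraries.

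The members and the marker lists (neural and Schwann cell, epithelial, immune cell, erythroid, brown fat, muscle, FoxO repressors, chromosome neighbours) were chosen with earlier results of these data known. Named from each list were the 3 tested miRNAs with the highest mean CPM at most, and for each member the 3 nearest patterns.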

Additional observations from a re-analysis of the deposited data

How the results depend on the processing

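Counts of members called moved with P90 replicate 2, the scaling and the filter, and shares in parentheses are of all miRNAs tested under the same setting. With RLE factors, library totals, upper-quartile factors and no filter, the members called across the ages were 1, 1, 3 and 3 (73.5%, 86.7%, 79.1% and 39.8%), against 0 as reported. From P14 to P90, against 1 as reported, they were 0 with library totals (79.9%) and 3 with upper-quartile factors (66.9%) or no filter (31.1%). From P1 to P90 they were 3 with library totals, all downregulated (80%), and 3 with upper-quartile factors, all upregulated (48.3%). Without the filter they were 1 for P5 versus P1 (4.02%), 1 for P14 versus P5 (22%) and 2 for P14 versus P1 (26.2%). With only 2 ages in the fit they were 1 for P5 versus P1 (11.7%) and 2 for P14 versus P1 (54.7%). With the GC trend removed, alone or with the replicate block, they were 0 for P90 versus P14. They were also 0 there with DESeq2, which gave no Padj for miR-96-5p, the 1 member called as reported.

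Leaving out 1 library gave 0 to 3 members across the ages, 0 to 1 for P5 versus P1, 0 to 1 for P14 versus P5, 0 to 2 for P90 versus P14, 0 to 2 for P14 versus P1 and 0 to 3 for P90 versus P1. Across the ages there were 2 without P90 replicate 1, 3 without P90 replicate 2 and 1 without P90 replicate 3. From P1 to P14 there were 2 without P90 replicate 1 or 2, and 1 without P90 replicate 3, P14 replicate 3 or P1 replicate 3. From P14 to P90 there were 2 without P90 replicate 1. The between-age range of the miR-183-5p to miR-96-5p log2 ratio was 1.31, and 0.79 to 2.00 with 1 library left out (0.79 without P14 replicate 2, 2.00 without P14 replicate 3).

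With P90 replicate 2 left out, chosen after seeing the data, the counts under RLE factors, library totals, upper-quartile factors, GC removal and DESeq2 were 3, 3, 2, 3 and 2 across the ages (67.9%, 78.5%, 72.4%, 66.7% and 69.6%) and 2 in each for P14 versus P1 (43.9% to 51%). For P5 versus P1 they were 1 with library totals (5.34%), GC removal (6.73%) and DESeq2 (12.3%). For P14 versus P5 they were 1 (40.7% to 45.4%) in all but GC removal. For P90 versus P14 they were 3 with library totals (75.6%) and 2 with GC removal (49.2%). For P90 versus P1 they were 3 with RLE factors (62.1%), 4 with library totals (74.2%), 3 with GC removal (63.2%) and 3 with DESeq2 (63.1%).

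The P14 versus P1 log2FC was negative in all 27 alternatives for miR-183-5p (-1.47 to -0.88, 9 with Padj under 0.05) and in all 26 for miR-96-5p (-2.51 to -1.43, 11 with Padj under 0.05). The estimates that changed sign while called, or on becoming called, were those of P90. With 1 library left out, the log2FC of miR-182-5p ran from -1.95 to 1.27 for P90 versus P14 and from -2.22 to 1.01 for P90 versus P1, and that of miR-96-5p from -1.83 to 0.89 for P90 versus P1. Without P90 replicate 2, the P90 versus P14 log2FC of miR-182-5p was -1.95 (RLE -1.67, library totals -4.42, GC removal -1.95, DESeq2 -1.67, and upper-quartile factors -0.61, not called), and for P90 versus P1 it was -2.22 (RLE -1.86, library totals -4.61, GC removal -2.22, DESeq2 -1.85). For miR-96-5p from P1 to P90 it was -1.83 (RLE -1.48, library totals -4.15, GC removal -2.26, DESeq2 -1.49), and -1.80 with library totals and all libraries. From P14 to P90 it was -2.28 for miR-96-5p and -3.15 for miR-183-5p with library totals, and -0.76 and -1.37 with GC removal. For miR-183-5p from P1 to P90, upper-quartile factors and all libraries gave 1.57. Causes of these changes beyond the library left out were not tested. A robust fit changed no count.

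Replicate numbers did not pair the libraries (same-numbered deviations correlated between -0.097 and 0.124), and a replicate block moved the members called from P14 to P90 from 1 to 0, with miR-96-5p at a log2FC of 1.80 (edgeR Padj = 0.0804), and no other count. Depth limits miR-96-5p at P14 and P90 and both 3p arms, whose counts are mostly under 35.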
